A study of Homo sapiens with 6 samples.

Results

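The HLA class I heavy chain genes HLA-B, HLA-C and HLA-E, the light chain gene B2M, the peptide loading genes TAP1, TAP2 and TAPBP, and their transcriptional activator NLRC5 were followed in NB4 cells with and without Tan I. The genes were chosen by symbol from a list of 9. HLA-F, the remaining symbol, was not analysed here, so 8 of the 18625 genes in the table are described, and all 8 passed the filter on low values. NB4 is an established human cell line from an acute promyelocytic leukemia and carries the PML-RARA fusion in both groups. Tan I, or Tanshinone I, is a lipid-soluble compound of Salvia miltiorrhiza that the study examined as an inhibitor of EZH2, the methyltransferase subunit of the PRC2 complex. Cells were kept for 3 days in DMSO, the solvent, or in Tan I at 10 μM, and RNA-seq was performed on 3 libraries per group. NB4 is a single cell line grown in culture, and no label states whether the 3 libraries of a group came from separate cultures, so p-values measure only the spread between these libraries, which may be technical.

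Class I molecules present peptides from inside the cell to CD8+ T cells and, through HLA-C and HLA-E, to receptors on natural killer cells. A heavy chain must pair with beta-2 microglobulin, the product of B2M, and with a peptide to be stable at the cell surface. The TAP1 and TAP2 subunits together form the pump that brings peptides into the endoplasmic reticulum, where tapasin, the product of TAPBP, holds an empty class I molecule next to the pump until a peptide binds. NLRC5 joins the RFX, CREB/ATF and NF-Y proteins at the promoters of heavy chain, B2M and TAP1 genes, and interferons act on many of the same promoters. Loss of these genes is a known route by which tumor cells escape T cells, and in several tumors PRC2 is known to keep them low.

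Library depth and cell identity set the frame for these values. The reads on listed genes numbered 25356503 to 31679138 in the DMSO libraries and 21502760 to 24298627 in the Tan I libraries. Of 8 promyelocyte markers, 6 had a row, with a summed normalized count of 71171 to 77317 in DMSO and 42027 to 50381 in Tan I, most of it from MPO. MPO had 60389 to 64107 in DMSO and 33279 to 39450 in Tan I, and CTSG had 1536 to 2392 and 839 to 1496. The groups of PRTN3, AZU1 and CEBPE overlapped, and CD33 had 3473 to 3868 in DMSO and 3578 to 4119 in Tan I. Of 4 monocyte markers, CD14 and C1QA had a row, and their sum was 20.3 to 38.5 in DMSO and 156 to 296 in Tan I, most of it from C1QA in Tan I. Of 10 lymphoid and stromal markers, 8 had a row, none of them was at 0 in any library, and their sum was 1264 to 1721 in DMSO and 1245 to 2014 in Tan I. The part of these shifts in the results was not tested. The first principal component (PC1) held 70.8% of the variance of all tested genes and spread the libraries within both groups. Its scores were -48.0, 41.1 and -26.7 in DMSO replicates 1, 2 and 3 and -46.8, 8.65 and 71.6 in Tan I replicates 1, 2 and 3.

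Of the 8 genes, 6 had promoter sequences in RefSeq (GRCh38.p14), and those of HLA-B, HLA-C, B2M, TAP2 and TAPBP are shown. They were chosen with the patterns over the libraries known, in which TAP2 went against the other genes shown. A link between these sequences and the values was not tested. HLA-E and NLRC5 are named only. Each line gives the 250 bases before the RefSeq start, 5′ to 3′ on the strand of the gene. Capitals mark matches on either strand to the interferon response element core AANNGAAA, the X2 box core TGACGC, and ATTGG, the inverted CCAAT of the Y box. For HLA-B, HLA-C, B2M and TAPBP the window lies partly or wholly inside the span that GENCODE gives the gene, since the annotated starts differ.
HLA-B (chr6:31357180-31357429, minus strand): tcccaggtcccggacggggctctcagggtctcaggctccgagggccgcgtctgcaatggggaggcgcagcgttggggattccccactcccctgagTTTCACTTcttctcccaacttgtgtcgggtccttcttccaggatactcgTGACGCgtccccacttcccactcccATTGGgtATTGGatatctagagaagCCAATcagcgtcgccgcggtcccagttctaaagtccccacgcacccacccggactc
HLA-C (chr6:31272093-31272342, minus strand): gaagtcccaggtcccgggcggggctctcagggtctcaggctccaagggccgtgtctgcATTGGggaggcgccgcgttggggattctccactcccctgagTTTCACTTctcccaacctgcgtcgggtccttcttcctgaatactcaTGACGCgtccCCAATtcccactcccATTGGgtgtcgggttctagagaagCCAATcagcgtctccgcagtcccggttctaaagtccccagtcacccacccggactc
B2M (chr15:44711267-44711516, plus strand): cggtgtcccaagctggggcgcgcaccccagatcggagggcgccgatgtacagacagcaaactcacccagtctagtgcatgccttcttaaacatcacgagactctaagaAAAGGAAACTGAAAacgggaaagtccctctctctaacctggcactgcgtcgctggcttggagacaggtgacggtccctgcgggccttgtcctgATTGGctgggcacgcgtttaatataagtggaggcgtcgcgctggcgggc
TAP2 (chr6:32838740-32838989, minus strand): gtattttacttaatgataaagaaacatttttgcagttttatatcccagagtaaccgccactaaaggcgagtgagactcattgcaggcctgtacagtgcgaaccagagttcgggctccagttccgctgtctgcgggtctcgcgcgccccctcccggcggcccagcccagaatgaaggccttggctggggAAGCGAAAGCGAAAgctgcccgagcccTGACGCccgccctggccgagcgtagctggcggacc
TAPBP (chr6:33314079-33314328, minus strand): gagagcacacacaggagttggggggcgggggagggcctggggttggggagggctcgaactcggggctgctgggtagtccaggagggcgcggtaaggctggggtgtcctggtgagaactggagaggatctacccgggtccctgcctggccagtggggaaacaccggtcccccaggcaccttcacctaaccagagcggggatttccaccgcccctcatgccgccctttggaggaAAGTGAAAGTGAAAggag

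The interferon response element core was found in 6 of 6 genes with a promoter, among them TAP1, against 20.3% of the 35116 RefSeq promoter windows of the same length. It began 155 bases before the start in HLA-B and 151 in HLA-C, in reverse orientation in both, and 2 overlapping copies stood in each of B2M, TAP1, TAP2 and TAPBP. In TAPBP these began only 18 and 12 bases before the start. The X2 box core was found in HLA-B, HLA-C and TAP2 (3 of 6 genes, against 7.67% of windows), at 106, 105 and 35 bases before the start. ATTGG was found in HLA-B, HLA-C, B2M and TAP1 (4 of 6, against 32.0% of windows), with 3 matches in HLA-B and 4 in HLA-C. TAP1 has a second RefSeq start, whose window held no match to the 3 motifs. The motif letters were chosen after these promoters had been seen, so the shares set beside those of all windows are no test. A gene was counted if any of its windows held a match, whereas the background counts windows. The windows of HLA-B and HLA-C are also much alike. These are letter matches only, and binding was not measured.

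Ordered by level per transcript length, the genes spanned a wide range, with the light chain far above the heavy chains and the peptide pump lowest. B2M reached 93170 ± 5451 normalized counts per kb of canonical transcript in DMSO and 108480 ± 18580 in Tan I (n = 3, mean ± SD). A normalized count is a read count divided by a size factor of its library. HLA-C (10035 in DMSO, 11973 in Tan I), HLA-E (9931 and 11817) and HLA-B (7575 and 9549) followed. HLA-C was above HLA-E in only 3 of 6 libraries, so the order of this pair is not settled, and HLA-E was above HLA-B in 6 of 6 although their Tan I ranges overlapped. B2M was 8.57 to 9.88 times HLA-C per kb in the single libraries, a gap that depends on the length used.

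The loading genes and NLRC5 formed a lower tier. TAPBP had 577 ± 10.6 normalized counts per kb in DMSO and 671 ± 43.4 in Tan I, and NLRC5 had 557 ± 35.7 and 599 ± 80.4. The TAPBP level was above that of NLRC5 in 4 of 6 libraries. TAP1 followed with 321 ± 38.4 and 328 ± 27.5, and TAP2 was lowest with 111 ± 40.1 and 99.1 ± 39.8. TAP1 was above TAP2 in 6 of 6 libraries, by 2.30 to 4.56 times per kb, although both subunits go into the same pump. With the length of all merged exons in place of the canonical transcript, B2M had 28151 normalized counts per kb in DMSO against 6172 for HLA-C, and it was only 3.13 to 3.38 times HLA-E, the next gene. On that length HLA-E stood above HLA-C in 6 of 6 libraries and NLRC5 above TAPBP in 3 of 6.

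**Figure D1:**
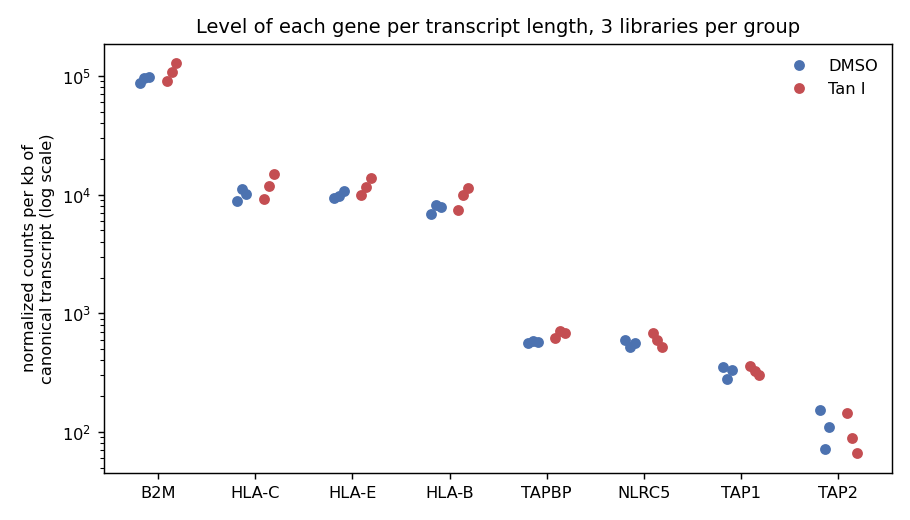
Normalized counts per kb of canonical transcript (log scale, y axis) of the 8 genes (x axis) in the DMSO (blue) and Tan I (red) libraries, 1 point per library. B2M lay between 86933 and 127255, the heavy chains between 6802 and 14841, and TAP2 between 65.9 and 153.

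None of the 8 genes passed the test between Tan I and DMSO. With limma's moderated test and Benjamini-Hochberg adjustment over 16887 genes, 0 of 8 were called (adjusted p no higher than 0.05, with a log2 fold change of 0.25 or more in either direction), against 0.0% of all genes, and all 8 had an adjusted p of 0.999. Without adjustment 0 of 8 were called, against 2.42% of all genes (408, of which 223 were higher and 185 lower in Tan I). Neither edgeR nor DESeq2 on the recovered reads called any of the 8 by either rule. The values were higher in Tan I for 7 of 8 genes, whereas 49.7% of all tested genes were higher. Their median log2 fold change was 0.21, and that of all tested genes was -0.0016. Rescaling the libraries to the same total left 6 of 8 higher, and leaving out Tan I replicate 1 left 5 of 8. The rescaling also moved the median of all tested genes to -0.061. The median of the 8 was 0.12 with quantile normalization, 0.11 without Tan I replicate 3 and 0.30 without Tan I replicate 1. In bulk samples a change in the cells of a type and a change in RNA per cell cannot be told apart.

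**Figure D2:**
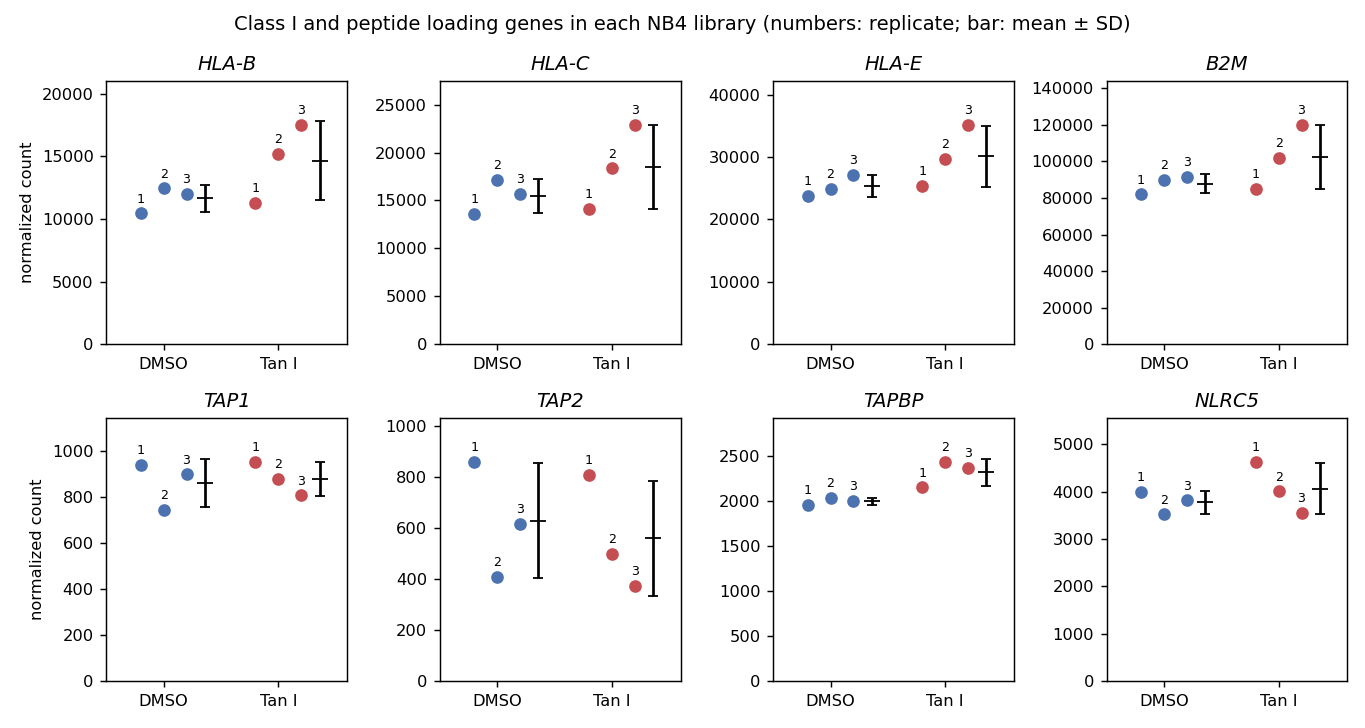
Normalized counts (y axis, from 0) of each gene in the 3 DMSO (blue) and 3 Tan I (red) libraries, numbered by replicate, with the mean ± SD as a black bar. Only in TAPBP do all Tan I points lie above all DMSO points, and TAP2 shows the widest spread within each group.

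HLA-B (ENSG00000234745, GRCh38 chr6:31353872-31367067, minus strand) encodes a classical heavy chain that presents peptides to CD8+ T cells. The normalized counts were 10447, 12435 and 12026 in DMSO replicates 1 to 3 and 11312, 15180 and 17510 in Tan I replicates 1 to 3. Tan I replicates 2 and 3 were above every DMSO library, and Tan I replicate 1 lay inside the DMSO range. The mean was 11636 ± 1050 in DMSO and 14667 ± 3131 in Tan I (n = 3, SD), and the log2 fold change was 0.31 with a standard error of 0.18 and a 95% interval of -0.11 to 0.74. The interval of HLA-B thus held both 0 and differences past the fold threshold (exact permutation test, two-sided, p = 0.3, where 3 against 3 libraries allow no p below 0.1).

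HLA-C (ENSG00000204525, chr6:31268749-31272130, minus strand) encodes the heavy chain that most killer-cell immunoglobulin-like receptors read. Its normalized counts were 13572, 17158 and 15692 in DMSO and 14158, 18346 and 22884 in Tan I. The libraries stood in the same order as for HLA-B, from DMSO replicate 1, the lowest, to Tan I replicate 3, the highest. This gave a log2 fold change of 0.23 (SE 0.20, 95% interval -0.23 to 0.70; exact permutation p = 0.4).

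HLA-E (ENSG00000204592, chr6:30489509-30494194, plus strand) encodes a non-classical heavy chain that carries leader peptides of other class I chains to the NKG2A receptor. Its normalized counts were 23748, 24967 and 27201 in DMSO and 25398, 29759 and 35169 in Tan I. Again only Tan I replicate 1 fell inside the DMSO range. The log2 fold change was 0.24 (SE 0.16, 95% interval -0.14 to 0.62; exact permutation p = 0.2).

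B2M (ENSG00000166710, chr15:44711358-44718851, plus strand), which encodes the light chain shared by these heavy chains, had normalized counts of 81978, 90103 and 91495 in DMSO and 84965, 101923 and 120001 in Tan I. Tan I replicates 2 and 3 were above all DMSO libraries and Tan I replicate 1 was below DMSO replicates 2 and 3. This gave a log2 fold change of 0.21 (SE 0.19, 95% interval -0.25 to 0.66; exact permutation p = 0.3). B2M lies on another chromosome than the heavy chain genes and had the same 2 libraries on top.

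The spread of these 4 genes within Tan I was wider than within DMSO. In HLA-B the log2 range was 0.63 in Tan I and 0.25 in DMSO, and in B2M it was 0.50 and 0.16. Counting error was small beside it, at most 0.945% of the count for HLA-B, since its lowest library still held 11204 reads. Without Tan I replicate 1, the library nearest to DMSO in these genes, the log2 fold change of HLA-B was 0.49, that of HLA-C was 0.41 and that of TAPBP was 0.27. In that fit these 3 of 8 genes passed the unadjusted rule, and so did 8.86% of all genes, and none of the 3 passed the adjusted rule. Without Tan I replicate 3, the highest library of these genes, the log2 fold changes were smaller, at 0.18 for HLA-B, 0.065 for HLA-C, 0.12 for HLA-E and 0.085 for B2M. The size of the difference in the heavy chains and B2M thus rested on which Tan I libraries were included.

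The proportions of chains to each other differed less than their levels. The ratio of HLA-B to HLA-C was 0.754 ± 0.0251 in DMSO and 0.797 ± 0.0312 in Tan I (n = 3, SD; exact permutation test, two-sided, p = 0.3). The 3 heavy chains summed to 0.596 ± 0.0120 times the B2M normalized count in DMSO and 0.616 ± 0.0160 in Tan I (n = 3, exact permutation p = 0.3). HLA-E to B2M was 0.288 in DMSO and 0.295 in Tan I (exact permutation p = 0.4), and HLA-B to B2M was 0.132 and 0.143 (exact permutation p = 0.2). None of these ratios separated the groups beyond the library spread. The ratios were chosen after the values had been seen. HLA-B and HLA-C are near-identical in long stretches and highly variable between people, and the removal of reads with several locations by the authors could lower their counts unequally, so their levels against each other are uncertain. Of the class I pseudogenes only HLA-H, HLA-J, HLA-K and HLA-L were looked up, and these 4 lay between 1.33 and 180 normalized counts.

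TAP1 (ENSG00000168394, chr6:32845209-32853816, minus strand) encodes a subunit of the peptide pump. The libraries held 941, 745 and 900 normalized counts in DMSO and 956, 881 and 808 in Tan I. Tan I replicate 1 was highest and DMSO replicate 2 lowest, and the groups overlapped. The log2 fold change was 0.04 (SE 0.14, 95% interval -0.28 to 0.36; exact permutation p = 0.8), and it turned to -0.023 after rescaling the libraries to the same total, -0.065 without DMSO replicate 2 and -0.024 without Tan I replicate 1. The rescaling also moved the median of all tested genes, from -0.0016 to -0.061. PSMB9, an immunoproteasome subunit with 305 to 571 normalized counts, and PSMB8-AS1, with 65.5 to 121, lie over TAP1 on the opposite strand. The strand setting of the counting is not given in the sources used here, so reads from the shared stretch may not be told apart.

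TAP2 (ENSG00000204267, chr6:32821833-32838739, minus strand) encodes the other subunit and was the most variable of the 8 genes. DMSO replicates 1 to 3 held 861, 408 and 617 normalized counts and Tan I replicates 1 to 3 held 808, 497 and 372. The groups overlapped, with the highest library 2.31 times the lowest. This gave a log2 fold change of -0.18 (SE 0.35, 95% interval -0.99 to 0.64; exact permutation p = 0.7), and it was 0.081 without DMSO replicate 1 and 0.078 without Tan I replicate 3. The spread was far over the counting error, which was 5.99% at the lowest library of 279 reads. The ratio of TAP1 to TAP2 was 1.09, 1.83 and 1.46 in DMSO and 1.18, 1.77 and 2.17 in Tan I (exact permutation p = 0.6), so the balance of the subunit RNAs varied within both groups. A readthrough gene that joins HLA-DOB to TAP2 shares its exons.

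TAPBP (ENSG00000231925, chr6:33299694-33314284, minus strand), which encodes tapasin, was the only one of the 8 whose groups did not overlap. Its normalized counts were 1955, 2028 and 1993 in DMSO and 2147, 2433 and 2367 in Tan I. Every Tan I library was above every DMSO library, as it was for 3.92% of all tested genes (662 of 16887). The mean was 1992 ± 36.6 in DMSO and 2316 ± 150 in Tan I (n = 3, SD), with a log2 fold change of 0.22 (SE 0.10, 95% interval -0.03 to 0.46). The unadjusted limma p was 0.0762, and the exact permutation test gave 0.1, the smallest p that 3 against 3 libraries can give. TAPBP also had the tightest DMSO values of the 8, with a log2 range of 0.05.

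NLRC5 (ENSG00000140853, chr16:56989485-57083531, plus strand) encodes the class I transactivator, and its canonical transcript has 49 exons. The values were 4000, 3519 and 3813 normalized counts in DMSO and 4634, 4003 and 3549 in Tan I. Tan I replicate 1, the lowest Tan I library for the heavy chains, was the highest of all for NLRC5, and the groups overlapped. The log2 fold change was 0.10 (SE 0.13, 95% interval -0.21 to 0.41; exact permutation p = 0.4), and it was -0.0013 without Tan I replicate 1. An antisense transcript with 48.2 to 78.3 normalized counts lies inside NLRC5.

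Over the 6 libraries some of the genes followed opposite patterns. The sets compared here were drawn by hand with TAPBP left out of both, and this choice shaped the ranges. Among HLA-B, HLA-C, HLA-E and B2M the Pearson correlations of log2 values over 6 libraries were 0.917 to 0.985 (6 pairs), and among TAP1, TAP2 and NLRC5 they were 0.794 to 0.894 (3 pairs). Between both sets they were -0.911 to -0.313 (12 pairs), so libraries high in heavy chain and B2M RNA tended to be low in TAP1, TAP2 and NLRC5 RNA. TAPBP went with the heavy chains and B2M (0.735 to 0.862) and not with TAP1, TAP2 and NLRC5 (-0.521 to -0.0169). These correlations are descriptions, since all genes of a library share its depth, its size factor and its place on PC1. The TAP2 values stood in exactly the reverse order of the library scores on PC1, and HLA-B and HLA-C were lowest in the 3 libraries with the lowest scores (DMSO replicates 1 and 3 and Tan I replicate 1).

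**Figure D3:**
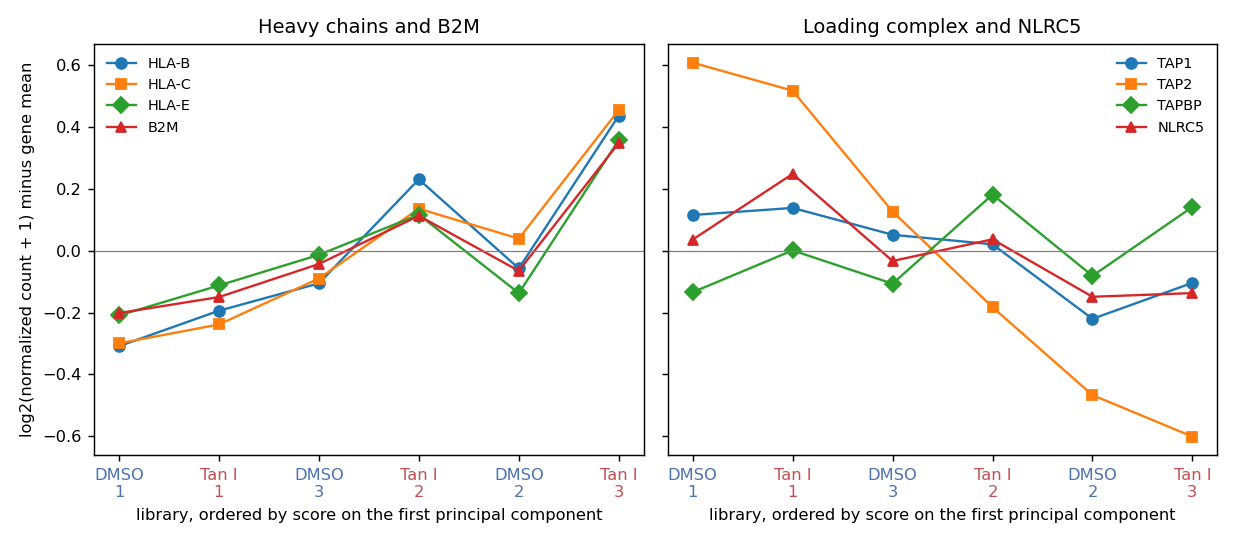
Log2(normalized count + 1) minus the mean of the gene (y axis) in each library, ordered by its score on PC1 (x axis, DMSO labels in blue, Tan I labels in red). HLA-B, HLA-C, HLA-E and B2M are lowest at DMSO replicate 1 and highest at Tan I replicate 3 but dip at DMSO replicate 2, and TAP2 descends from DMSO replicate 1 to Tan I replicate 3.

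With PC1 as a covariate, the values of all 8 genes were higher in Tan I (median log2 fold change 0.15). PC1 was computed from the same data, the 8 genes included. None of the 8 was called by the adjusted rule, against 1.15% of all genes (194 of 16887). TAPBP had a log2 fold change of 0.19 with a limma adjusted p of 0.156, and HLA-B had 0.22 with 0.172. For NLRC5 the log2 fold change was 0.16 (limma adjusted p = 0.203) and that of TAP2 turned from -0.18 to 0.05 (limma adjusted p = 0.85).

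**Figure D4:**
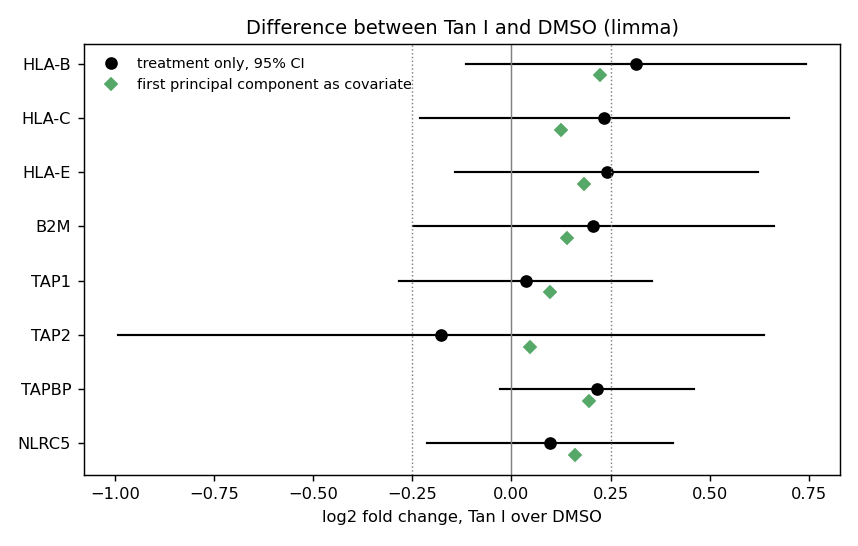
Difference between the groups (log2 fold change, Tan I over DMSO, x axis) for each gene (y axis), with its 95% interval from limma (black) and the value with PC1 as a covariate (green); dotted lines mark the fold threshold of 0.25. Every black interval crosses 0, and that of TAPBP, from -0.03 to 0.46, comes closest to lying above it.

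Genes that work beside class I molecules were taken from lists. The 10 loading partners, trimming and editing genes held 6 genes with higher and 4 with lower values in Tan I (median log2 fold change 0.09), and 0 passed either rule. PDIA3 encodes ERp57, the oxidoreductase bound to tapasin. The 3 DMSO libraries had 17434, 21105 and 19333 normalized counts of PDIA3 and the 3 Tan I libraries 20366, 26912 and 29070, so the groups overlapped. Its log2 fold change was 0.39 with a standard error of 0.17, at an unadjusted limma p of 0.0595 and an exact permutation p of 0.2. TAPBPL, which encodes the peptide editor TAPBPR, had a log2 fold change of -0.28 (SE 0.25). Of the 10 genes, 9 were higher with PC1 as a covariate (median 0.11).

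The 6 immunoproteasome and activator genes, which encode catalytic subunits and activators of the proteasome, held 5 higher and 1 lower, with a median of 0.18, and 0 passed either rule. PSMB9, a catalytic subunit, had a log2 fold change of 0.23 (SE 0.25), and PSME1, a subunit of the PA28 activator, had 0.22 (SE 0.24). With PC1 as a covariate 3 of these 6 were higher. Of 18 factors that act on class I promoters or carry the interferon gamma signal, 17 were tested, with 10 higher, 7 lower, a median of 0.02 and 0 past either rule. JAK2, the kinase at the interferon gamma receptor, had a log2 fold change of -0.32 (SE 0.22), and IFNGR2, a chain of that receptor, had 0.25 (SE 0.22). Of the 17 factors, 8 were higher with PC1 as a covariate.

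Of 11 other class I and class I-like genes, 7 were tested, with 2 higher, 5 lower and a median of -0.13, and 0 passed either rule. CD1D, which presents lipids, had a log2 fold change of -0.66 (SE 0.42) on 10 to 35 reads per library, and ULBP1, a ligand of the NKG2D receptor, had -0.38 (SE 0.36). With PC1 as a covariate 2 of the 7 were higher, and 1 of the 7 was called by the adjusted rule, against 1.15% of all genes (194 of 16887). The gene called was FCGRT, the neonatal Fc receptor heavy chain, at -0.41 (limma adjusted p = 0.027), a gene singled out after its values were seen. The 3 DMSO libraries held 663, 980 and 746 normalized counts and the 3 Tan I libraries 486, 700 and 796, so the FCGRT groups overlapped.

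Class II genes were low beside class I genes. Of 12 class II genes 5 were tested, with 4 higher, 1 lower, a median of 0.04 and 0 past either rule. CIITA, the class II counterpart of NLRC5, lay between 9.63 and 35.9 normalized counts, HLA-DRB1 between 3.73 and 10.6, and HLA-DOB between 408 and 448. HLA-DMB, a chain of the class II peptide editor, had all Tan I libraries above DMSO, as had 3.92% of all tested genes. It held only 13 to 20 reads per library (log2 fold change 0.40, SE 0.31). HLA-DMA, its partner chain, had a log2 fold change of -0.11 (SE 0.22). Of the 5 class II genes tested, 4 were higher with PC1 as a covariate.

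Of 19 type I interferon response genes 14 were tested, with 9 higher, 5 lower, a median of 0.12 and 0 past either rule. MX1, an antiviral GTPase, had a log2 fold change of -0.82 (SE 0.46) on 5 to 31 reads per library, and ISG15, a ubiquitin-like protein, had 0.40 (SE 0.29). With PC1 as a covariate 6 of the 14 were higher, with a median of -0.042. The differences of MX1 and ISG15 without the covariate had opposite signs, and the interval of each included 0. The 6 PRC2 core genes held 5 higher and 1 lower, with a median of 0.08 and 0 past either rule. EED, the subunit that reads the PRC2 mark, had a log2 fold change of 0.21 (SE 0.12), and SUZ12, a scaffold subunit, had 0.13 (SE 0.11). Of the 6 PRC2 genes, 6 were higher with PC1 as a covariate (median 0.11). No gene of any of these lists had an unadjusted limma p below 0.0591 without the covariate.

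**Figure D5:**
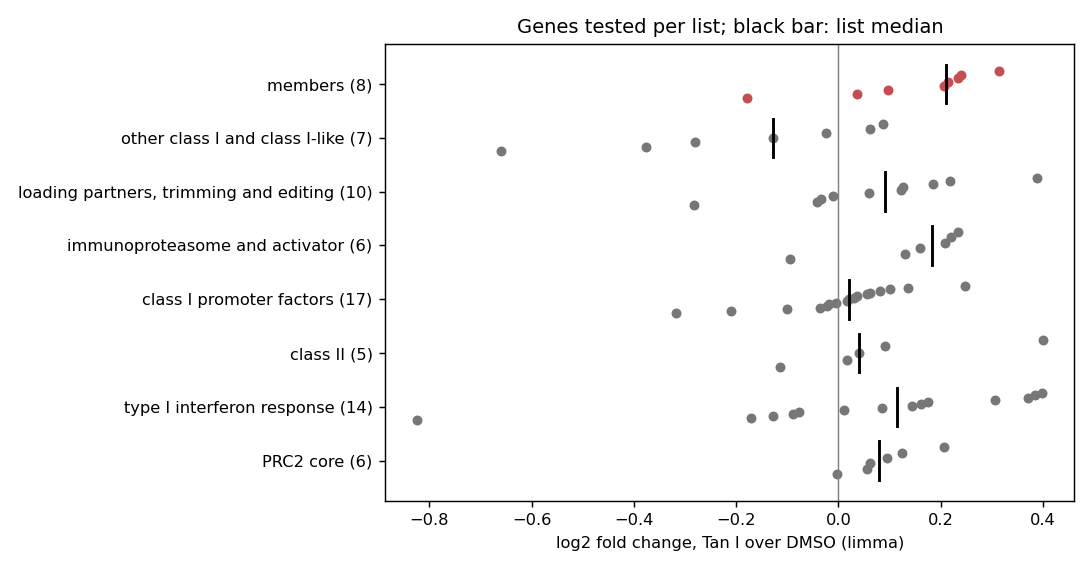
Difference between the groups (log2 fold change, Tan I over DMSO, x axis, limma) of each tested gene in the 8 class I and loading genes (red) and in 7 related lists (grey), with the number tested in parentheses and the list median as a black bar. The red points range from -0.18 to 0.31, and the medians of all lists lie between -0.13 and 0.21.

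The genes most like the mean profile of the 8 were found by Pearson correlation of log2 values over the 6 libraries, among all tested genes. They were CXCL8 (0.993), which encodes the neutrophil chemokine interleukin-8, SIL1 (0.989), a nucleotide exchange factor of the endoplasmic reticulum, AL121852.1 (0.988), ARFGAP1 (0.987), a GTPase activator in Golgi transport, and PSPC1 (0.986), a paraspeckle protein. These are the highest values of many, over only 6 points that share their libraries. Since the profile of the 8 was itself higher in Tan I, the choice by likeness fixed the direction of these genes, and no test is given for them. CXCL8 had normalized counts of 2143, 1526 and 2178 in DMSO and 2693, 3407 and 3415 in Tan I. Every Tan I library was above every DMSO library, as it was for 3.92% of all tested genes. The mean profile of the 8 separated the groups in the same way, so the choice by likeness favored this pattern. The log2 fold change of CXCL8 was 0.71.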

How the data were processed

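RNA-seq was made from 6 libraries of NB4 cells, 3 per treatment (DMSO, or Tan I at 10 μM). Per the methods and labels, the authors mapped read pairs with STAR (GRCh38), dropped reads with several locations, counted genes with featureCounts and normalized with DESeq2. Their versions, the annotation and the strand setting are not given in the sources used here. The deposited signal values are normalized counts, that is, counts per gene divided by a size factor per library. In each library 100.0% of values gave whole reads (tolerance 1e-06). The columns with the authors' fold changes and p-values were not used.

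Genes with a mean of at least 10 normalized counts (16887 of 18625) were tested on log2(normalized count + 1) with limma 3.58.1 in R 4.3.3, with a variance trend and treatment as the only term. A fold change on this scale understates the change of low genes. Single values were compared by exact permutation tests (SciPy 1.17.1). edgeR 4.0.16 and DESeq2 1.42.0 were run on the recovered reads as alternatives, as were fits with other pseudocounts, filters, scalings and covariates and each library left out. The limma, edgeR and DESeq2 fits were tested on simulated data. Coordinates and lengths came from GENCODE v44.

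The genes and lists were chosen with earlier results of these data known. Of each related list the text names genes past the unadjusted rule and otherwise the 2 with the largest absolute log2 fold change, and in addition the 5 genes most like the mean profile. FCGRT, levels of CIITA, HLA-DRB1 and HLA-DOB, the ratios and the motif letters were chosen after values or promoters had been seen.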

Additional observations from a re-analysis of the deposited data

How the results depend on the processing

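No gene of the 8 passed the adjusted rule under any of the 17 alternatives, and HLA-B, HLA-C, HLA-E, B2M and TAPBP were higher in Tan I under all of them, at log2 fold changes of 0.18 to 0.49, 0.065 to 0.41, 0.12 to 0.36, 0.085 to 0.33 and 0.16 to 0.27. The median log2 fold change of the 8 was 0.12 with quantile normalization, 0.15 when rescaled to the same total and 0.15 with the first principal component (PC1) in the model, and 0.11 (without Tan I replicate 3) to 0.30 (without Tan I replicate 1) with 1 library left out. Rescaling to the same total also moved the median of all tested genes, from -0.0016 to -0.061. TAP1 turned to -0.023 when rescaled to the same total and ran from -0.065 (without DMSO replicate 2) to 0.10 with 1 library left out, and it was -0.024 without Tan I replicate 1. TAP2 turned to 0.048 with PC1 and ran from -0.48 (without Tan I replicate 1) to 0.081 (without DMSO replicate 1), and NLRC5 ran from -0.0013 (without Tan I replicate 1) to 0.19. The cause was not tested. Over all genes, the adjusted rule called 0 with limma and edgeR, 16 with DESeq2 (1965 genes had no adjusted p) and 194 with PC1. The unadjusted rule called 1496 with PC1 and 160 (without Tan I replicate 2) to 1496 (without Tan I replicate 1) with 1 library left out, the latter from a separate fit that gave an equal count. Deviations from the group mean correlated at 0.751, -0.0881 and -0.451 between same-number libraries, and at 0.758 between DMSO replicate 2 and Tan I replicate 3. The libraries also differ in PC1 score, so these values cannot settle whether the replicate numbers pair them. A replicate block called 348 genes without and 0 with adjustment. Counting error was at most 5.99% of the count in the lowest library of a gene, that of TAP2, and leaving out Tan I replicate 1 alone let 3 of the 8 genes pass the unadjusted rule.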
